A study of Mus musculus with 9 samples.

Results

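A list of 37 genes of the ATF4 stress response, amino acid supply and tRNA charging was read in mouse regulatory T cells of conditional knockouts of Sirt1, which encodes an NAD-dependent deacetylase, and of the wild type. It holds integrated stress response and unfolded protein response genes, enzymes of serine and one-carbon metabolism, amino acid transporters and cytosolic tRNA synthetases. Asns, the asparagine synthetase gene, was left out of it. Of the 37 genes, 36 were on the platform annotation, out of 12393 genes measured, and Eif2s1 was dropped because no probe set carried its symbol in that annotation. A gene was tested where its mean over the arrays lay no lower than the 40th percentile of the gene means, a log2 signal of 4.979, which kept 32 of the 36 listed genes and 7436 genes in all. The other 4 were dim on all arrays: Chac1 lay between 3.65 and 4.29, Nupr1 between 3.96 and 4.74, Vldlr between 2.72 and 3.04, and Slc7a11 between 2.33 and 3.002.

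RNA was measured on 9 Affymetrix arrays, 1 per sample, from T cells separated with magnets for the surface markers CD4 and CD25. There were 3 groups of 3 arrays, all on the C57BL6 strain: mice whose Sirt1 was removed conditionally by CD4 cre recombinase (CD4-cre), mice in which Foxp3 cre recombinase did so (Foxp3-cre), and the wild type. CD4 is carried by helper T cells in general and Foxp3 encodes the factor by which regulatory T cells are defined. The range of cells in which each recombinase had acted, and when, was not measured here. The sources used here do not give the part of Sirt1 that was removed, the age of the mice or whether the wild type carried a recombinase. The design text names the 3 samples per group independent, and no label ties them to separate animals, so a p-value here measures only how these samples vary, and that variation may be technical.

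ATF4 is a transcription factor made in larger amounts when the initiation factor eIF2 is phosphorylated, which happens on amino acid shortage or when unfolded protein builds up in the endoplasmic reticulum. It then switches on genes that take up and make amino acids, charge tRNAs, and in prolonged stress stop growth. T cells draw on the same transporters and serine enzymes when they are activated and divide. Control of ATF4 is largely by translation, which an RNA measurement does not see.

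Many ATF4 targets are bound at a CEBP-ATF response element. Its core, spelled TGATGNAA here, was searched on both strands of the RefSeq promoter windows of the assembly GRCm38.p6, each running from 250 bases before to 50 bases after a gene's start. The core was in 12 of the 34 windows of the 31 listed genes that had one (35.3%), against 3.97% of all 32851 windows. The genes were Aars, Atf3, Chac1, Gars, Iars, Nupr1, Pck2, Slc7a11, Tars, Trib3, Vldlr and Yars, and the window of Asns held the core too. The core is the pattern that these 12 listed genes share with Asns, the gene set beside them below. The stretches around it are therefore printed for Asns and for these genes other than Aars. Each is read on the strand of the core, with the core in capitals:
Asns, chr6:7693214-7693243, minus strand: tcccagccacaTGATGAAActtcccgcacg
Atf3, chr1:191183425-191183454, plus strand: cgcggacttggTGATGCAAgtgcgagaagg
Chac1, chr2:119351038-119351067, minus strand: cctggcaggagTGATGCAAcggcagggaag
Gars, chr6:55037960-55037989, minus strand: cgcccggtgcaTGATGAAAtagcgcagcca
Iars, chr13:49682126-49682155, minus strand: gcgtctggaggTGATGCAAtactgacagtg
Nupr1, chr7:126625562-126625591, plus strand: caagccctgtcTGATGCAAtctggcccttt
Pck2, chr14:55540152-55540181, minus strand: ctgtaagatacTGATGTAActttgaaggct
Slc7a11, chr3:50443642-50443671, plus strand: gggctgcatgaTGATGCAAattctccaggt
Slc7a11, chr3:50443661-50443690, minus strand: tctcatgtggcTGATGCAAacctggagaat
Tars, chr15:11399655-11399684, plus strand: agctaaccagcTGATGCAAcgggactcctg
Trib3, chr2:152344028-152344057, plus strand: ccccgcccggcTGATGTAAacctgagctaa
Vldlr, chr19:27216809-27216838, minus strand: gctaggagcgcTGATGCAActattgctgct
Yars, chr4:129189895-129189924, plus strand: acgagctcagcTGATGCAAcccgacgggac
The N of the core was C in 9 of the 13 stretches, A in 2, that of Asns among them, and T in 2. A match is a description of the letters, not of a bound site. Sequence outside the windows was not searched, so a window without the core does not mean that its gene lacks one.

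Atf4 itself and Slc38a2, the listed genes whose signal passed the test in a comparison below, held none of the 3 elements searched in their windows. The 250 bases before their starts are shown for that reason, and with them those of Hspa5, the only listed gene whose window held the endoplasmic reticulum stress response element, given in capitals.
Atf4, chr15:80254934-80255183, plus strand: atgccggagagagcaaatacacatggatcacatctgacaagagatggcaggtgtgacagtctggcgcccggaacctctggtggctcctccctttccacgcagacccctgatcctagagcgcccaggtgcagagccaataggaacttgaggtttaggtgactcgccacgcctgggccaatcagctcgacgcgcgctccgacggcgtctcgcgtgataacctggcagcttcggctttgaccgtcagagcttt
Slc38a2, chr15:96699729-96699978, minus strand: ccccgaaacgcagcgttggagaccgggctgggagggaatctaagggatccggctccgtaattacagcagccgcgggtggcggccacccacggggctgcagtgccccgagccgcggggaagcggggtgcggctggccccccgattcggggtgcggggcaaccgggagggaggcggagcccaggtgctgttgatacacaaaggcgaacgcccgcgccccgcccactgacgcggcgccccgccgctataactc
Hspa5, chr2:34771840-34772089, plus strand: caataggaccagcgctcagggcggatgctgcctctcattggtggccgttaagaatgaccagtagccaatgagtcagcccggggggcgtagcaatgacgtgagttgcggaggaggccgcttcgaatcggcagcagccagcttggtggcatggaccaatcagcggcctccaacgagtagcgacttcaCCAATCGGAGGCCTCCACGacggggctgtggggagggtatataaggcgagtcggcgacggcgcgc
The stress element was in 0.119% of all windows. The third element, TGACGTGG, known for XBP1 and ATF6, was in 0 of the 34 windows of listed genes and in 0.676% of all windows. No matches of the 3 elements overlapped in the windows of listed genes.

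The 8 other arrays were closer to each other than to wild type replicate 2. Over all probe sets it correlated with the others at 0.982 to 0.987, and they at 0.9919 or more among themselves. On it the 5′ minus 3′ signal of beta-actin was −1.53, against −0.676 to −0.454 elsewhere. The Sirt1 probe set had 7.69, 7.59 and 7.59 on the CD4-cre arrays, 7.66, 7.54 and 7.47 on the Foxp3-cre arrays, and 7.91, 6.77 and 7.90 on the wild type arrays. All 6 knockout arrays lay below wild type replicates 1 and 3 and above replicate 2. The log2 differences were 0.096 in CD4-cre and 0.028 in Foxp3-cre and did not pass. Once wild type replicate 2 was left out they were −0.28 (adjusted p = 0.0730) and −0.35 (adjusted p = 0.0301, limma). Whether the probe set lies in the removed part is unknown here. Foxp3 had 2.67, 3.38 and 2.83 on the Foxp3-cre arrays, 9.62 to 9.69 on the CD4-cre arrays and 9.16 to 9.68 on the wild type arrays, while Cd3e, Cd3g, Cd4, Il2ra, Ctla4 and Ikzf2 did not pass the test in either knockout. Foxp3 was read by 1 probe set. Whether that probe set reads the Foxp3 transcript of mice carrying Foxp3 cre recombinase is unknown here, so its low signal need not be a loss of Foxp3. Of 13 cycling markers 7 rose in Foxp3-cre and 0 passed in CD4-cre, with mean levels of 8.02 to 8.13 on CD4-cre arrays, 8.32 to 9.17 on Foxp3-cre arrays and 7.45 to 7.96 on wild type arrays. Of 10 neutrophil markers 6 rose in Foxp3-cre and 0 passed in CD4-cre, with mean levels of 8.23 to 9.08, 9.16 to 10.14 and 7.78 to 8.75 on the CD4-cre, Foxp3-cre and wild type arrays. The 6 were Camp, Ngp, Ltf, Lcn2, Mpo and Elane. The 10 did not all move together, with 7 higher in CD4-cre and 9 in Foxp3-cre. Csf3r differed by −1.53 in CD4-cre and −0.33 in Foxp3-cre, and Cxcr2 by −0.38 and 0.052. Of 6 tested monocyte and macrophage markers C1qb rose in Foxp3-cre. All 6 lay above the wild type there, with a median difference of 1.15, and 5 had an unadjusted p below 0.05. The 9 listed markers of these cells had mean levels of 5.94 to 7.13 on CD4-cre arrays, 6.70 to 8.28 on Foxp3-cre arrays and 6.09 to 6.59 on wild type arrays. On the wild type arrays C1qb had 4.21, 4.15 and 4.02, and Elane of the neutrophil markers had 4.79, 4.59 and 4.91. All of these values lay below the filter level of 4.979, as did the wild type means of C1qa (4.86) and Mpo (4.84). These genes were tested because their means over all arrays lay above that level. Their differences are thus measured from a dim wild type signal. In either knockout 0 of 5 plasma cell and 0 of 4 B cell markers passed, and their directions were mixed. Of the plasma cell markers 3 were higher in CD4-cre and 2 in Foxp3-cre, and of the B cell markers 3 in each. In CD4-cre and Foxp3-cre Jchain differed by −0.49 and −0.60, Ighm by −0.38 and −0.50, and Igha by 0.93 and 0.69. Their wild type means were 11.90, 13.71 and 11.41, and that of S100a8 was 12.02, beside 11.06 for Cd3e and 9.39 for Foxp3. Other markers of these lists were dimmer, with 7.07 for Cd79a and 5.30 for Sdc1. What cells other than T cells added to the signals of the listed genes was not tested. In bulk RNA, fewer cells of a type and less RNA per cell cannot be told apart.

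Each knockout was compared with the wild type, and the series title names the function of regulatory T cells after targeting of Sirt1 as the subject. None of the 32 tested genes of the list rose in either knockout by the test across all genes. In CD4-cre 0 of the 32 tested genes passed limma's test at an adjusted p below 0.05, a threshold that 0.659% of all tested genes passed. At an unadjusted p below 0.05 there were 6 of them, against 14.1% of all tested genes. In Foxp3-cre 2 of 32 passed, Atf4 and Slc38a2, and both fell, against 3.36% of all tested genes that passed and 1.67% that passed as fallen. At an unadjusted p below 0.05 there were 9, against 21.3% of all genes.

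The median log2 difference over the 32 genes was −0.066 for CD4-cre minus wild type, where the median over all tested genes was 0.026. For Foxp3-cre minus wild type it was 0.0073, with 0.0061 over all tested genes, and it turned to −0.031 when each array was centred on its own median. Of the 32 genes 10 were higher and 22 lower in CD4-cre, where 56.3% of all tested genes were higher, and 16 were higher and 16 lower in Foxp3-cre, where 51.1% of all tested genes were higher. The 3 CD4-cre arrays lay above all 3 wild type arrays for 3 genes and below them for 5, where 11.9% and 9.16% of all tested genes did so. The 3 Foxp3-cre arrays lay above for 3 and below for 9, where 11.1% and 12.2% of all tested genes did so. Leaving out wild type replicate 2 turned the direction of 11 of the 32 genes in CD4-cre (34.4%) and of 4 in Foxp3-cre (12.5%), where 24.5% and 20.6% of all tested genes did so. Both knockouts share the same wild type arrays, so their differences are not independent of each other.

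**Figure D1:**
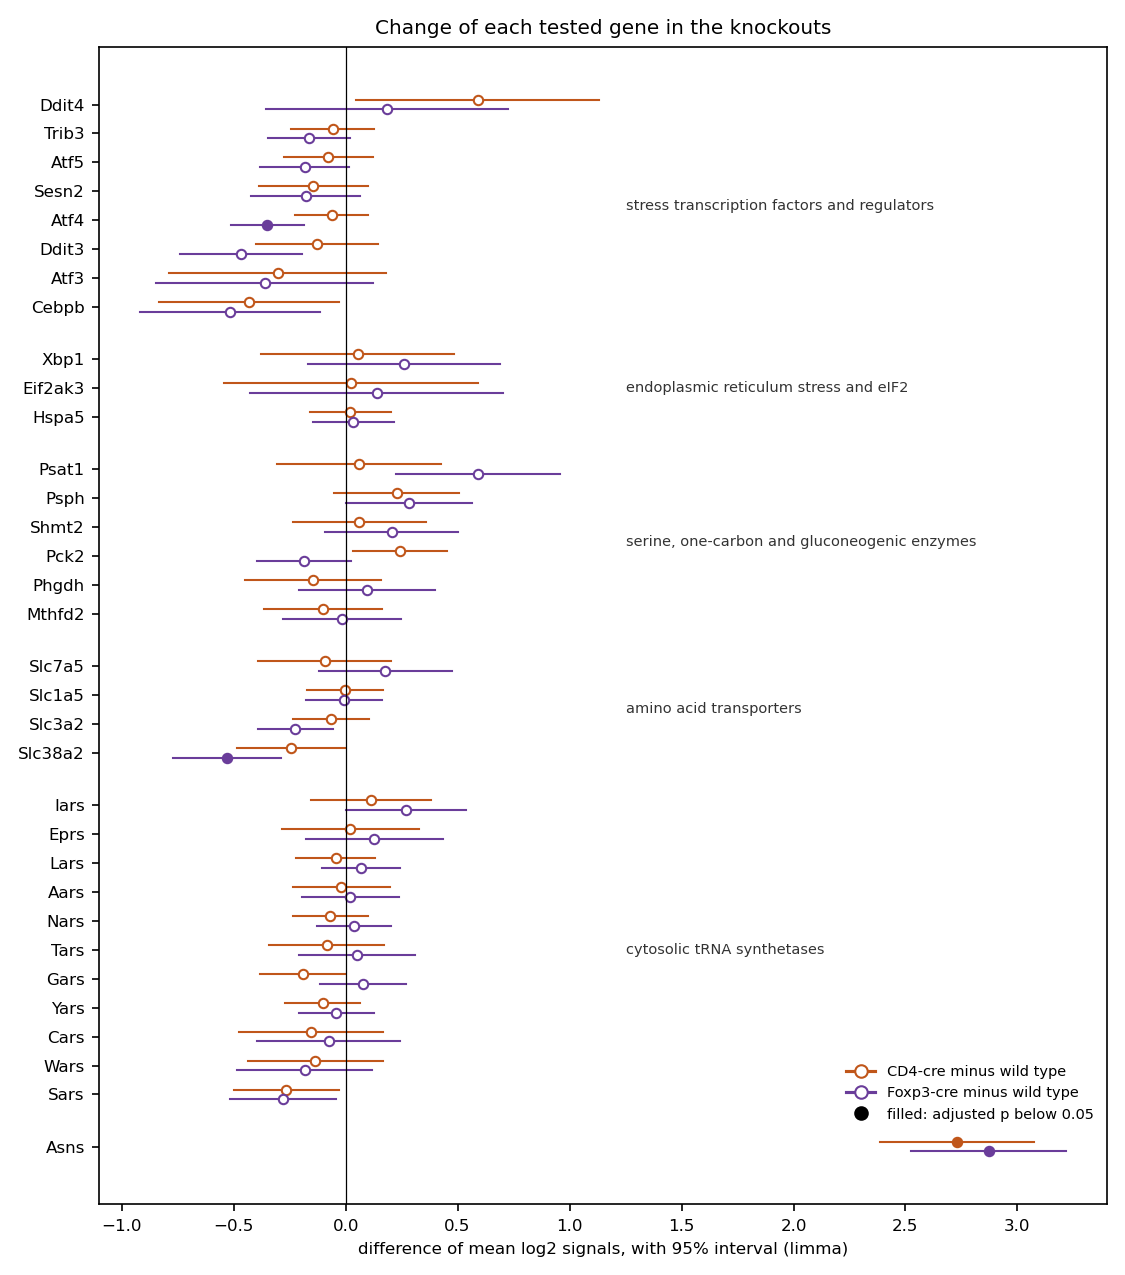
Difference of mean log2 signal from the wild type for each of the 32 tested genes, grouped by role, in CD4-cre and in Foxp3-cre, with 95% confidence intervals of the limma fit and Asns beside them (3 arrays a group). The listed genes lie between −0.53 and 0.59, whereas Asns lies at 2.73 and 2.87.

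Asns was the only gene of the stress response lists that rose in both knockouts, and its values are given here for scale. It had 7.46, 7.504 and 6.99 on the CD4-cre arrays, 7.39, 7.35 and 7.64 on the Foxp3-cre arrays, and 4.78, 4.55 and 4.43 on the wild type arrays. No knockout array came near a wild type array. All 3 wild type values lay below the filter level of 4.979. Asns was tested because its mean over all arrays, 6.46, lay above that level. The differences and fold values of Asns are thus measured from a dim wild type signal. The differences were 2.73 ± 0.15 (SE, n = 3 each, adjusted p = 0.000113 by limma) in CD4-cre and 2.87 ± 0.15 (adjusted p = 3.58e-05) in Foxp3-cre, which are 6.64-fold and 7.32-fold. A second Asns probe set differed by 2.34 and 2.54. The 95% confidence intervals of Asns began at 2.39 and 2.53. Among the 32 listed genes the highest upper bound was 1.13, of Ddit4 in CD4-cre, and 0.96, of Psat1 in Foxp3-cre, so a rise of the size seen for Asns lies outside the interval of every one of them.

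The transcription factors and regulators of the stress response come first. They are Atf4 itself, Atf3 and Atf5, which belong to the same family of factors, Cebpb, which pairs with ATF4 at the response element, Ddit3, which encodes CHOP, Trib3, a pseudokinase induced by ATF4, and Ddit4 and Sesn2, which restrain the growth kinase mTORC1. Of the 8 tested, 7 were lower in each knockout, where 43.7% (CD4-cre) and 48.9% (Foxp3-cre) of all tested genes were lower. The median difference of the 8 was −0.10 in CD4-cre and −0.27 in Foxp3-cre. Without 1 array these medians ran from −0.16 to −0.064 in CD4-cre and from −0.31 to −0.17 in Foxp3-cre. Of the 8, Atf4 alone passed the test, in Foxp3-cre, where it fell. The 3 Foxp3-cre arrays lay below all wild type arrays for 5 of the 8, where 12.2% of all tested genes did so. These 5 were Atf4, Atf5, Cebpb, Ddit3 and Trib3.

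Atf4 had 10.64, 10.58 and 10.51 on the CD4-cre arrays, 10.22, 10.30 and 10.33 on the Foxp3-cre arrays, and 10.64, 10.60 and 10.68 on the wild type arrays. The Foxp3-cre arrays were all below the other 6, and the CD4-cre arrays overlapped the wild type. Atf4 averaged 10.29 ± 0.057 in Foxp3-cre and 10.64 ± 0.041 in the wild type (SD, n = 3 each), a difference of −0.35 ± 0.073 (SE, adjusted p = 0.0358, limma), or 0.784 times the wild type signal. In CD4-cre the difference was −0.063 ± 0.073 (adjusted p = 0.716). The test of Foxp3-cre minus CD4-cre gave −0.29 and did not pass (adjusted p = 0.232). The direction in Foxp3-cre was the same in all 9 fits that leave out 1 array, from −0.37 to −0.32. The call was not: the adjusted p stayed below 0.05 without wild type replicate 1 (0.0460) or wild type replicate 2 (0.02002), and was 0.0671 to 0.0975 without wild type replicate 3, without any 1 of the CD4-cre arrays or without any 1 of the Foxp3-cre arrays. Other probe sets of Atf4 differ in pattern. One was lower in both knockouts, by −0.60 in CD4-cre and −0.56 in Foxp3-cre, with its highest signal, 9.46, on wild type replicate 2 and 8.79 and 8.75 on the other wild type arrays. A dim one showed −0.14 and −0.0021. Averaged over its probe sets, Atf4 differed by −0.30 in Foxp3-cre and did not pass (adjusted p = 0.169).

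Cebpb had the largest difference of the listed genes when both knockouts were set against the wild type. It had 9.14, 9.02 and 9.27 on the CD4-cre arrays, 8.64, 9.14 and 9.39 on the Foxp3-cre arrays, and 9.43, 9.51 and 9.79 on the wild type arrays. All 6 knockout arrays lay below all 3 wild type arrays, with a wide spread among the Foxp3-cre arrays. The differences were −0.43 ± 0.18 (SE, adjusted p = 0.324) and −0.52 ± 0.18 (adjusted p = 0.141, limma) in CD4-cre and Foxp3-cre, and −0.47 for the average of both (adjusted p = 0.136). Its second probe set gave −0.19 and −0.45.

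Ddit3 had 7.84, 7.91 and 7.87 on the CD4-cre arrays, 7.41, 7.55 and 7.63 on the Foxp3-cre arrays, and 7.86, 8.29 and 7.85 on the wild type arrays. The Foxp3-cre arrays lay below the other 6, and wild type replicate 2 lay well above the rest. The difference was −0.47 ± 0.12 in Foxp3-cre (SE, adjusted p = 0.0719, limma), and without wild type replicate 2 it was −0.32 with an adjusted p of 0.0389. Ddit4 ran the other way. It had 10.29, 10.48 and 10.56 on the CD4-cre arrays, 9.44, 10.39 and 10.29 on the Foxp3-cre arrays, and 9.90, 9.54 and 10.12 on the wild type arrays. The CD4-cre arrays all lay above the wild type, by 0.59 ± 0.24 (adjusted p = 0.320), and the Foxp3-cre arrays lay on both sides of it, by 0.18 ± 0.24 on average (adjusted p = 0.671). Neither difference passed. The remaining regulators differed by −0.30 and −0.36 (Atf3), −0.077 and −0.18 (Atf5), −0.059 and −0.16 (Trib3) and −0.14 and −0.18 (Sesn2) in CD4-cre and Foxp3-cre, and none passed.

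**Figure D2:**
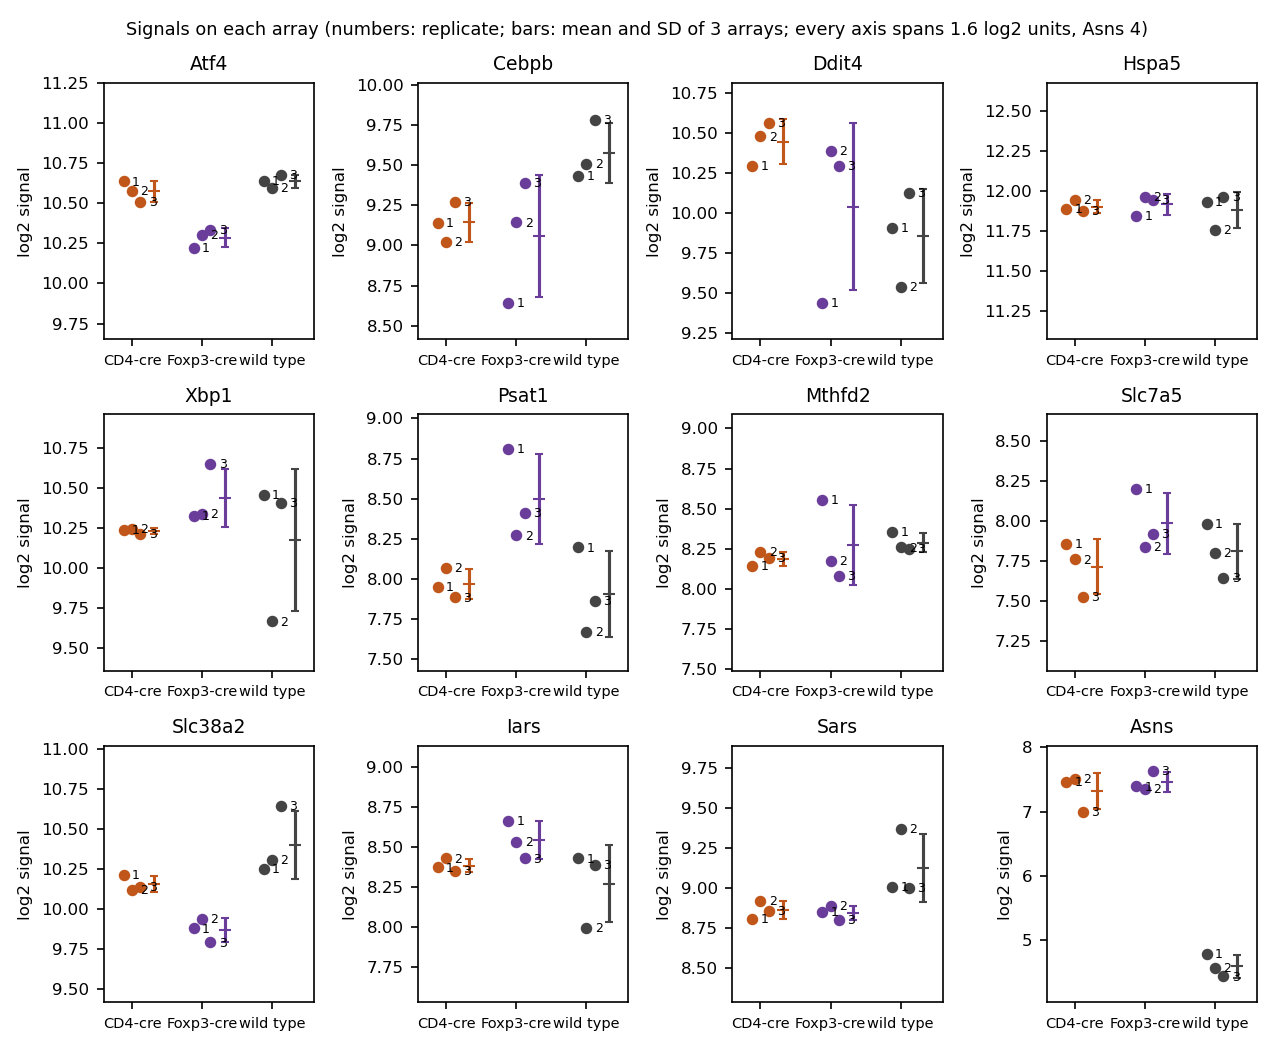
Log2 signal on each of the 9 arrays for the listed genes described in full, with CD4-cre and Foxp3-cre left of the wild type, numbered points for single arrays and bars for the mean and SD of 3 arrays, on axes that span 1.6 log2 units (4 for Asns). The Foxp3-cre points of Atf4 and Slc38a2 lie below all wild type points, and those of Hspa5 overlap them.

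The endoplasmic reticulum branch showed no difference that passed. Hspa5 encodes BiP, the main chaperone of that compartment, Xbp1 is the factor spliced by IRE1, and Eif2ak3 encodes PERK, the kinase that phosphorylates eIF2 on unfolded protein. Hspa5 had 11.89, 11.95 and 11.87 on the CD4-cre arrays, 11.84, 11.97 and 11.94 on the Foxp3-cre arrays, and 11.93, 11.76 and 11.96 on the wild type arrays. The 3 groups overlapped, and the differences were 0.021 ± 0.081 and 0.035 ± 0.081 (SE, n = 3 each), with upper 95% bounds of 0.20 and 0.22. Xbp1 had 10.24, 10.25 and 10.21 on the CD4-cre arrays, 10.33, 10.34 and 10.65 on the Foxp3-cre arrays, and 10.46, 9.67 and 10.41 on the wild type arrays. Wild type replicate 2 was the lowest of the 9. The differences were 0.054 ± 0.19 and 0.26 ± 0.19 (adjusted p = 0.914 and 0.444), whereas its other 3 probe sets were at or below the wild type, from −0.73 to −0.23 in CD4-cre and from −0.58 to −0.0080 in Foxp3-cre. Eif2ak3 differed by 0.024 and 0.14, again with its lowest signal, 6.95, on wild type replicate 2. These 3 genes had a median of 0.024 in CD4-cre, which was −0.0018 with centred arrays, and 0.14 in Foxp3-cre. When wild type replicate 2 was left out the medians were −0.20 and −0.028, with Eif2ak3 at −0.28 and −0.17, Hspa5 at −0.042 and −0.028, and Xbp1 at −0.20 and 0.0059.

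Enzymes of serine and one-carbon metabolism feed serine and formate into nucleotide synthesis. Phgdh, Psat1 and Psph catalyse the steps from glycolysis to serine, Shmt2 and Mthfd2 pass its carbon on in mitochondria, and Pck2 encodes the mitochondrial form of phosphoenolpyruvate carboxykinase. Their median difference was 0.060 in CD4-cre and 0.15 in Foxp3-cre, with 4 of 6 higher in each, and 0 passed. The median was −0.0038 in CD4-cre without wild type replicate 2 and 0.028 in Foxp3-cre without Foxp3-cre replicate 1. Psat1 had 7.95, 8.07 and 7.88 on the CD4-cre arrays, 8.81, 8.27 and 8.41 on the Foxp3-cre arrays, and 8.20, 7.67 and 7.86 on the wild type arrays. The Foxp3-cre arrays were the 3 highest of the 9. The difference was 0.59 ± 0.16 in Foxp3-cre (SE, adjusted p = 0.0854, limma) and 0.060 ± 0.16 in CD4-cre. Without wild type replicate 1 it was 0.73 with an adjusted p of 0.0404, and without each of the other 8 arrays the adjusted p lay between 0.0897 and 0.185. A second Psat1 probe set gave 0.39 in Foxp3-cre and −0.032 in CD4-cre.

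Psph was above the wild type on all knockout arrays, by 0.23 and 0.28 (adjusted p = 0.440 and 0.234), with 7.32 on wild type replicate 2 and 7.77 on the other wild type arrays. Without that replicate it differed by 0.077 and 0.13. Pck2 stood above the wild type in CD4-cre and below it in Foxp3-cre. It had 7.65, 7.80 and 7.65 on the CD4-cre arrays, 7.15, 7.32 and 7.34 on the Foxp3-cre arrays, and 7.37, 7.59 and 7.40 on the wild type arrays. The groups did not overlap in any pair, with CD4-cre highest and Foxp3-cre lowest. The differences from the wild type were 0.24 ± 0.093 and −0.19 ± 0.093 (adjusted p = 0.293 and 0.281), and Foxp3-cre minus CD4-cre was −0.43 ± 0.093 (SE, adjusted p = 0.178). Without wild type replicate 2, which enters that comparison only through the shared estimate of spread, the adjusted p was 0.0418. Mthfd2 had 8.14, 8.23 and 8.19 on the CD4-cre arrays, 8.55, 8.17 and 8.08 on the Foxp3-cre arrays, and 8.36, 8.26 and 8.25 on the wild type arrays. Its differences were −0.0999 and −0.017, and the Foxp3-cre arrays held both the highest and the lowest value of the 9. Shmt2 differed by 0.061 and 0.20 and Phgdh by −0.14 and 0.094.

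Foxp3-cre replicate 1 stood apart from the other Foxp3-cre arrays in these enzymes and in the stress regulators. The median of the 6 enzymes, each centred on its mean over the 9 arrays, was 0.30 on that array and 0.028 and −0.043 on the other Foxp3-cre arrays, against −0.11 to 0.027 on the wild type arrays. The 8 stress regulators had −0.33 on the same array and −0.14 and 0.00050 on the other Foxp3-cre arrays, against 0.025 to 0.17 on the wild type arrays. This array also had the highest mean of the 13 cycling markers, 9.17, against 8.32 and 8.56 on the other Foxp3-cre arrays. Among the Foxp3-cre arrays it was the lowest in the mean of B cell markers (7.03, against 8.27 and 8.36), of monocyte and macrophage markers (6.70, against 7.52 and 8.28), of neutrophil markers (9.16, against 9.54 and 10.14) and of erythroid markers (3.67, against 4.58 and 4.78). The part of these markers in the values above, and in the falls of Atf4 and Slc38a2, was not tested. Foxp3-cre replicate 1 was the highest or the lowest of the 9 arrays for 19 of the 32 listed genes (59.4%), against 30.2% of all tested genes, and wild type replicate 2 was so for 18 (56.2%), against 59.4% of all tested genes.

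**Figure D3:**
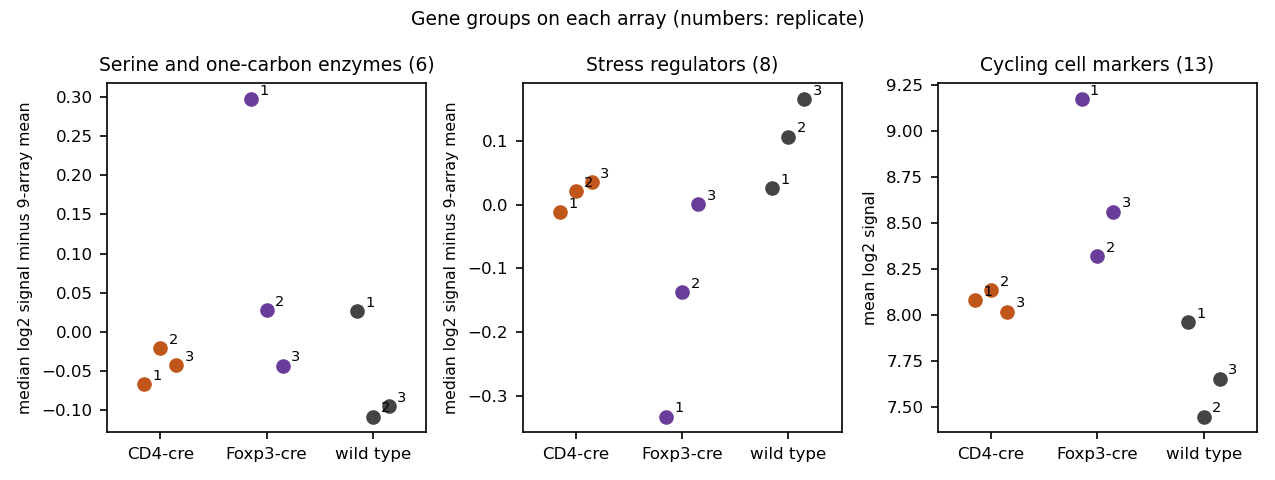
Median of the 6 serine, one-carbon and gluconeogenic enzymes and median of the 8 stress regulators, both with each gene centred on its mean over the 9 arrays, and mean log2 signal of the 13 cycling markers, on each array (numbers give the replicate). Foxp3-cre replicate 1 has the highest enzyme value, 0.30, and the lowest regulator value, −0.33.

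Of the amino acid transporters, Slc38a2 encodes SNAT2, which takes up small neutral amino acids and is known to be induced when they run short. Slc7a5 and Slc3a2 encode the light and heavy chain of LAT1, which brings in leucine and other large neutral amino acids, and Slc1a5 encodes the glutamine carrier ASCT2. Slc38a2 had 10.21, 10.12 and 10.14 on the CD4-cre arrays, 9.88, 9.94 and 9.79 on the Foxp3-cre arrays, and 10.25, 10.31 and 10.64 on the wild type arrays. The groups did not overlap, with the wild type highest and Foxp3-cre lowest. Slc38a2 averaged 9.87 ± 0.075 in Foxp3-cre and 10.40 ± 0.21 in the wild type (SD, n = 3 each), a difference of −0.53 ± 0.11 (SE, adjusted p = 0.0329, limma). In CD4-cre the difference was −0.24 ± 0.11 and did not pass (adjusted p = 0.352), nor did Foxp3-cre minus CD4-cre at −0.29 (adjusted p = 0.349).

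The fall of Slc38a2 in Foxp3-cre lay between −0.60 and −0.41 in the 9 fits without 1 array. The adjusted p stayed below 0.05 without wild type replicate 1 (0.0258) or wild type replicate 2 (0.0253), and was 0.0625 to 0.116 without wild type replicate 3, without any 1 of the CD4-cre arrays or without any 1 of the Foxp3-cre arrays. Slc3a2 was lower in Foxp3-cre by 0.22 on the log2 scale without passing (adjusted p = 0.131), and passed at −0.28 without wild type replicate 2 (adjusted p = 0.0273). Slc7a5, which works in a complex with the product of Slc3a2, had 7.86, 7.76 and 7.53 on the CD4-cre arrays, 8.20, 7.84 and 7.92 on the Foxp3-cre arrays, and 7.98, 7.80 and 7.64 on the wild type arrays. The groups overlapped, with differences of −0.094 and 0.18. Slc1a5 differed by −0.0043 and −0.0070, with a 95% interval from −0.17 to 0.17 in CD4-cre.

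The 11 cytosolic tRNA synthetases attach amino acids to their tRNAs. Their median differed from the wild type by −0.085 in CD4-cre, with 9 of 11 lower, where 43.7% of all tested genes were lower. Without 1 array this median ran from −0.12 to −0.048. The number lower was 7 without CD4-cre replicate 1 and 10 without CD4-cre replicate 2. In Foxp3-cre the median was 0.038, with 7 of 11 higher, where 51.1% of all tested genes were higher. With centred arrays it was −0.00042 with 5 of 11 higher. Without wild type replicate 2 it was −0.0060, again with 5 of 11 higher, and without wild type replicate 3 it was −0.0063. None passed in any comparison. Iars, for isoleucine, had 8.37, 8.43 and 8.35 on the CD4-cre arrays, 8.67, 8.53 and 8.43 on the Foxp3-cre arrays, and 8.43, 7.997 and 8.39 on the wild type arrays. Wild type replicate 2 was the lowest, and the differences were 0.11 and 0.27 (adjusted p = 0.687 and 0.234), or −0.025 and 0.13 without that array. Its second probe set gave 0.42 and 0.54, with 6.73 on wild type replicate 2 and 7.91 and 7.78 on the other wild type arrays. Sars, for serine, had 8.81, 8.92 and 8.86 on the CD4-cre arrays, 8.85, 8.89 and 8.80 on the Foxp3-cre arrays, and 9.01, 9.37 and 9.003 on the wild type arrays. All knockout arrays lay below all wild type arrays, by 0.26 and 0.28 on the log2 scale (adjusted p = 0.307 and 0.170), and its second probe set gave −0.14 and −0.23. Sars differed by −0.14 and −0.16 without wild type replicate 2. The other synthetases were Aars, Cars, Eprs, Gars, Lars, Nars, Tars, Wars and Yars, and their differences ran from −0.19 (Gars in CD4-cre) to 0.13 (Eprs in Foxp3-cre).

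**Figure D4:**
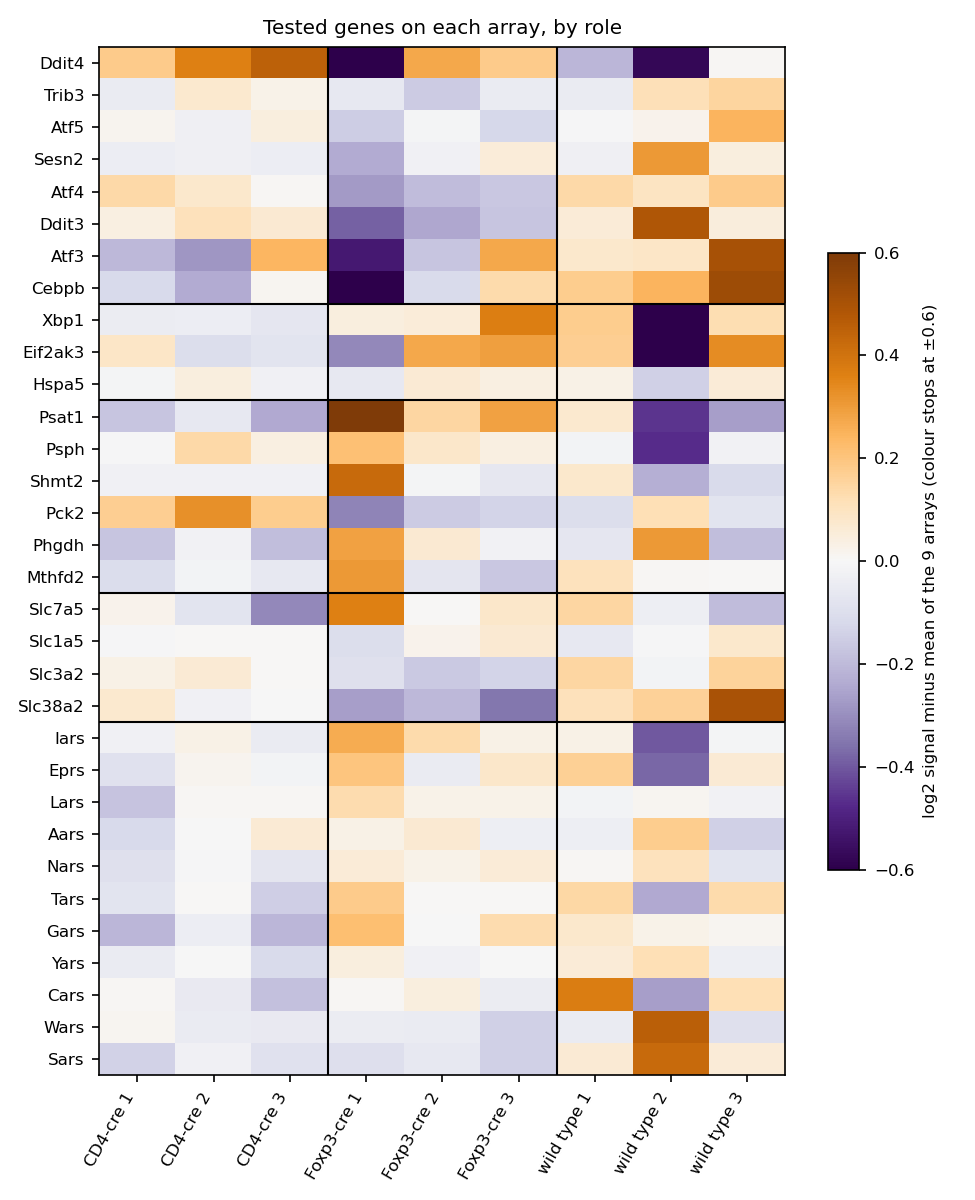
Log2 signal of the 32 tested genes on the 9 arrays, each gene centred on its mean over the arrays and ordered by role, with the CD4-cre and Foxp3-cre columns left of the wild type columns. Foxp3-cre replicate 1 is the highest or lowest array for 19 of the 32 genes and wild type replicate 2 for 18.

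Between the knockouts 0 of the 32 genes passed, where 1 of all tested genes did (0.0134%), and 6 had an unadjusted p below 0.05, against 11.3% of all tested genes. The Foxp3-cre arrays lay above the CD4-cre arrays for 5 genes and below for 5, where 10.9% and 18.8% of all tested genes did so. In Foxp3-cre minus CD4-cre, where 45.3% of all tested genes were above 0, the 8 stress regulators were all lower, with a median of −0.11, and 9 of the 11 synthetases were higher, with a median of 0.11. With centred arrays these counts were the same and the medians were −0.12 and 0.093. Without Foxp3-cre replicate 1, 5 of the 8 regulators were lower and 3 higher, with a median of −0.091. In the same fit 9 of the 11 synthetases were higher, with a median of 0.075. Gars, the glycine enzyme, differed by 0.27 (adjusted p = 0.274), with all 3 Foxp3-cre arrays above all 3 CD4-cre arrays. With both knockouts averaged and set against the wild type 0 of 32 passed, against 2.26% of all tested genes, and 7 had an unadjusted p below 0.05, against 20.1%. All 6 knockout arrays lay above the wild type arrays for 1 gene, Psph, and below for 3, Cebpb, Sars and Slc38a2, where 5.66% and 5.29% of all tested genes did so.

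The listed genes were also split by the response element core, although with 2 passed genes in all this split could hardly show a difference in calls. Of the 8 tested genes with the core 0 passed in either knockout, and their median differences were −0.072 in CD4-cre and −0.00997 in Foxp3-cre. The 18 tested genes with a window but no core in it had medians of −0.063 and 0.0088 and included both genes that fell. Among the other tested genes, 157 had the core, of which 3 rose and 4 fell in Foxp3-cre and 0 rose and 2 fell in CD4-cre. The 5929 other tested genes with a window and no core included 97 that rose and 96 that fell in Foxp3-cre, and 10 that rose and 27 that fell in CD4-cre.

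Other genes of the same pathways were counted beside the list. Of 20 tested other integrated stress response genes, Asns rose in both knockouts and Ppp1r15a fell in Foxp3-cre. Ppp1r15a encodes GADD34, the phosphatase subunit that reverses eIF2 phosphorylation. It had 10.60, 10.56 and 10.53 on the CD4-cre arrays, 9.87, 10.26 and 10.21 on the Foxp3-cre arrays, and 10.89, 10.48 and 11.08 on the wild type arrays. The Foxp3-cre arrays were the 3 lowest, at −0.71 ± 0.16 (SE, adjusted p = 0.0425, limma), and CD4-cre differed by −0.26 (adjusted p = 0.477). The call in Foxp3-cre held without wild type replicate 2, at −0.87 (adjusted p = 0.00784), and not without any 1 of the other 8 arrays, where the adjusted p was 0.0650 to 0.106. Nfe2l2, of the same list, did not pass with all arrays. Without wild type replicate 2 it passed as lower in both knockouts. It then differed by −0.53 in CD4-cre (adjusted p = 0.00680) and −0.54 in Foxp3-cre (adjusted p = 0.00295, limma). Leaving out that array also raised the count of all tested genes that passed in each knockout, as given in the section on processing below.

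Of 26 tested other unfolded protein response genes 0 passed in either knockout, and the largest differences for both knockouts together were those of Sdf2l1 (0.24 in CD4-cre and 0.41 in Foxp3-cre) and Dnajb9 (−0.14 and −0.37), which encode a cofactor and a co-chaperone of BiP. Dnajb9 fell when wild type replicate 2 was left out, with a difference of −0.61 in Foxp3-cre (adjusted p = 0.0285, limma). Of 10 other cytosolic synthetases and cofactors 0 passed, led by Kars (0.19 and 0.26), the lysine enzyme, and Eef1e1 (0.19 and 0.20), a part of the multi-synthetase complex. Kars differed by 0.12 and 0.19 without wild type replicate 2, and Eef1e1 turned to −0.18 and −0.17. Of 8 mitochondrial synthetases 0 passed, led by Iars2 (0.17 and 0.32) and Fars2 (0.27 and 0.19). Without the same array Iars2 differed by −0.0072 and 0.14, and Fars2 by 0.16 and 0.086. Of 9 other amino acid and one-carbon enzymes 0 passed, and the branched-chain aminotransferases Bcat2 (−0.29 and −0.37) and Bcat1 (0.19 and 0.43) had the largest differences, of opposite sign. Of 4 other amino acid transporters 0 passed, led by Slc7a7 (0.20 and 0.36) and the glutamine carrier Slc38a1 (0.27 and 0.085), which had 0.16 and −0.021 without wild type replicate 2.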

How the data were processed

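RNA of magnetically separated cells was hybridised to 9 Affymetrix arrays. The deposited values are log2 signals, 1 per probe set and array, made by the authors with RMA per the submitters' processing notes, which corrects background, normalizes between arrays and summarises probes. The sources used here do not give the RMA version, the scanner or the genome build. RMA compresses differences of dim probe sets and removes a change common to all genes. The table holds 22690 probe sets, of which 64 controls were left out, 20380 carry 1 gene symbol, 691 several and 1555 none. Symbols were checked against RefSeq, where 20351 matched and 0 changed.

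A gene was represented by its probe set of highest mean. Groups come from the genotype label. R 4.3.3 and limma 3.58.1 tested differences of the deposited log2 values by lmFit and eBayes (no trend, not robust), in 1 fit of 3 groups with 6 residual degrees of freedom and 3.37 from the prior, two-sided, with Benjamini-Hochberg adjustment over the 7436 tested genes and a threshold of 0.05. Every adjusted p is limma's. No exact permutation test was run, since its smallest p with 3 arrays a side is 0.1. The script was tested on simulated data. The number of arrays limits the precision.

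The members and lists were chosen with earlier results of these data known. Genes given on every array passed in a comparison or had, within their role group, the highest or lowest difference of both knockouts from the wild type. Ddit3, Pck2, Nfe2l2 and the stretches of promoter were added after their values were seen. The stretches of Aars are not reported here. From each other pathway list, members that passed, or the 2 with the largest difference, are named. Alternatives were the replicate number as a block, each array left out, other filters, other rules for probe sets, centred arrays, only the compared groups, array weights and a trended robust variance. Markers of T cells, plasma cells, B cells, neutrophils, monocytes and macrophages, erythroid cells and cycling cells were read, and 0 of 1 tested erythroid marker passed. 0 pairs of arrays held identical values.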

Additional observations from a re-analysis of the deposited data

How the results depend on the processing

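Directions and counts were recomputed under 19 alternatives. Among the listed genes named by the rule, differences from the wild type that did not pass turned their sign for Hspa5 in CD4-cre (5 alternatives) and Foxp3-cre (3), Xbp1 in CD4-cre (4) and Foxp3-cre (2), Mthfd2 in Foxp3-cre (4), and, in CD4-cre, Slc7a5 (2), Iars (1) and Psat1 (1). The falls of Atf4 and Slc38a2 in Foxp3-cre kept their sign. With 0 listed genes passed in CD4-cre, 2 in Foxp3-cre, 0 between the knockouts and 0 for both knockouts together, limma's array weights gave 3, 7, 6 and 5, while they also moved the count over all genes to 1298, 1539, 812 and 1604, against 49, 250, 1 and 168. In Foxp3-cre the count was 1 with no filter on dim genes, 1 with probe sets averaged and 0 with only the compared groups in the fit, where 16 of all genes passed. Atf4 then had an adjusted p of 0.0602, 0.169 and 0.158. With centred arrays it was 1 for both knockouts together. Fits without 1 array gave 0 to 0 listed genes in CD4-cre, 0 to 4 in Foxp3-cre, 0 to 1 between the knockouts and 0 to 1 for both together. The 4 were Atf4, Ddit3, Slc3a2 and Slc38a2, all lower, without wild type replicate 2, when 567 of all genes passed in Foxp3-cre and 191 in CD4-cre.

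The median over listed genes became −0.0916 in CD4-cre, −0.0310 in Foxp3-cre and −0.0533 for both knockouts with centred arrays, −0.0305 in Foxp3-cre and −0.0518 for both with array weights, 0.0379 in Foxp3-cre with the 60th percentile filter, and 0.0273 between the knockouts with no filter. Without 1 array it ran from −0.0836 to −0.0433 in CD4-cre, from −0.0303 to 0.0270 in Foxp3-cre, from 0.0139 to 0.0646 between the knockouts and from −0.0647 to −0.0127 for both. The cause of these shifts was not tested. Leaving out probe sets with shared probes, chosen after seeing the data, gave 0, 2, 0 and 0.

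With the replicate number as a block, 0, 2, 0 and 0 listed genes passed, the 2 in Foxp3-cre being Slc38a2 (adjusted p = 0.0434) and Psat1 at 0.59 (adjusted p = 0.0471), while Atf4 did not pass (adjusted p = 0.0549), and 67, 354, 96 and 226 of all genes. Same-numbered arrays correlated between −0.03 and 0.49 in their deviations from group means. The numbers were not taken to pair the samples, because 2 of these 9 correlations lay under 0.1 and no label ties a number to a shared source, although 7 of 9 arrays correlated best with their own number. With 3 arrays a group and 1 wild type array that stands apart, small differences of dim genes are not resolved, and Chac1, Nupr1, Slc7a11 and Vldlr were too dim to test.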
